A study of Homo sapiens with 16 samples.

Results

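Human mitochondrial DNA was followed through a ChIP-seq experiment, as 37 windows of the mitochondrial chromosome (chrM) among 237274 distinct windows around transcription start sites (TSS). The windows were chosen by one criterion, a chromosome listed as chrM, and each belongs to one mitochondrial gene. They hold 22 tRNA genes, 2 rRNA genes and 13 protein-coding genes, and no window shares its coordinates with another. The material was BJ-5ta, a human skin fibroblast line immortalised by telomerase (hTERT). Wild type was compared with ΔLEO1, which is 1 CRISPR/Cas9 knockout clone. The LEO1 protein belongs to the PAF1 complex, which travels with RNA polymerase II in the nucleus. Wild-type and ΔLEO1 cells either proliferated in 10% serum or were held for 10 days in 0.1% serum to become quiescent. For every combination of genotype and serum there were 2 ChIP and 2 input libraries, with the replicate letters A and B. Nothing in the labels said that these came from separate cultures, so p-values measure the spread between libraries only. The sample labels name the antibody as H3, whereas the design of the study names H3K9me2, dimethylation of a lysine in the tail of that histone that marks silent chromatin. The libraries are therefore called ChIP here. The input is the same sheared chromatin sequenced without the antibody.

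Mitochondrial DNA is a small circle, present in many copies in each cell, that is packaged by the protein TFAM into nucleoids and carries no histones. An antibody against a histone mark has no known target on it, while sonicated whole-cell chromatin contains it in abundance. Its genes lie close together with almost no spacers, and the tRNA genes punctuate the rRNA and protein-coding genes. The main non-coding stretch, the control region, holds the promoters and the origin of heavy-strand replication and lies between MT-TP and MT-TF. Fragments of mitochondrial DNA have also been copied into the nuclear chromosomes during evolution, and short reads from such copies can be hard to place.

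Windows were listed as 2000 bp long, 1 kb to each side of a gene start, in coordinates of the hg38 build named by the submitters. All 37 TSS positions equalled the gene start listed for GRCh38.p14, with 28 genes on the + strand and 9 on the - strand. Because mitochondrial gene starts lie close together, the windows overlapped heavily, one read was counted in several of them, and only 7 of them can be laid side by side without overlap. The 37 windows are therefore not 37 independent measurements. The windows of MT-TF (chrM:0-1577) and MT-RNR1 (chrM:0-1648) were clipped at the start of the map. Those of MT-TT (chrM:14888-16888) and MT-TP (chrM:15023-17023) ran past its end, so they covered less DNA than listed. Those 4 windows are the ones that reach into the control region.

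The 8 inputs held between 2844482 and 7947291 reads over distinct windows, and 7 ChIP libraries held between 1895572 and 3266061. ΔLEO1 10% serum ChIP replicate A held 50 reads over distinct windows and 0 on chrM, where 3 counts would be 6% of its reads, and it was left out. ΔLEO1 in 10% serum was thus represented by 1 ChIP library. Of 16092 peak regions in the second deposited table, 0 lay on chrM. The tables hold no expression values, so the cell type could not be checked by its markers. The LEO1 window of lowest p (chr15:51970778-51972778) gave a log2 difference of -0.41 ± 0.21 (SE) between ΔLEO1 and wild-type inputs, with an unadjusted p of 0.0480 and an adjusted p of 0.896 (edgeR, Benjamini-Hochberg). The counts do not settle the genotype labels.

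Mitochondrial DNA was abundant in every input and scarce in every ChIP library. The share of window reads that lay on chrM was 2.11% and 1.71% in the wild-type inputs in 10% serum, and 3.41% and 2.04% in the ΔLEO1 inputs in 10% serum (replicates A and B). In 0.1% serum the input shares were 1.88% and 1.94% in wild type and 2.39% and 1.83% in ΔLEO1. In the ChIP libraries the share was 0.0851% and 0.0963% in wild type and 0.120% in ΔLEO1 in 10% serum, and 0.0344% and 0.0648% in wild type and 0.0505% and 0.0525% in ΔLEO1 in 0.1% serum. The lowest input lay far above the highest ChIP library, and the groups did not overlap.

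**Figure D1:**
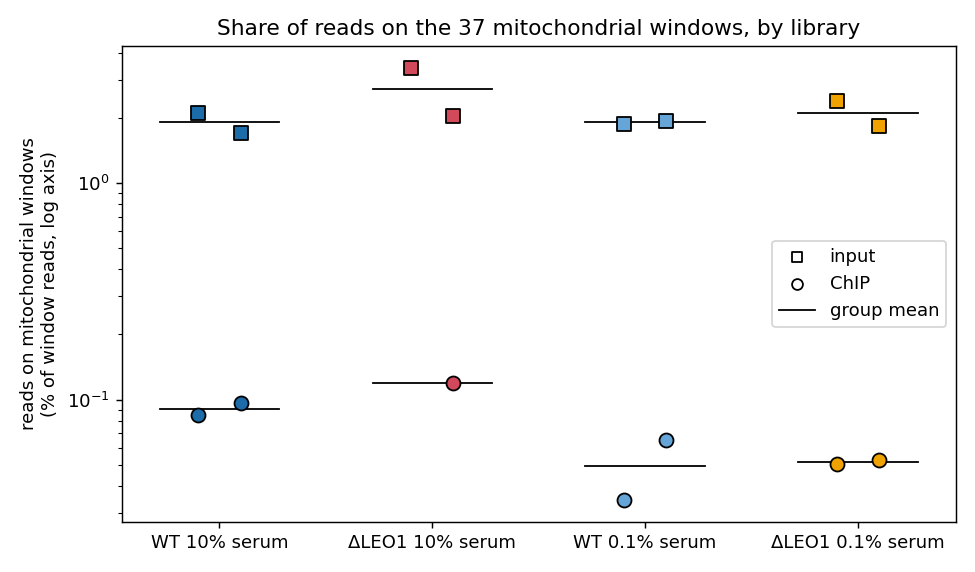
Share of window reads on the 37 mitochondrial windows (percent, log axis) in 15 libraries, by genotype and serum. Squares are inputs, circles are ChIP libraries, A to the left of B, and lines are group means. The 8 inputs lie between 1.71% and 3.41%, and the 7 ChIP libraries between 0.0344% and 0.120%.

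The mean share was 0.0719% ± 0.0299 (SD, n = 7) in ChIP and 2.16% ± 0.544 (SD, n = 8) in input. On the log2 scale the difference was -4.99, which is 31.7-fold lower in ChIP (exact permutation test over libraries, two-sided, p = 0.000311, the smallest that the 6435 arrangements allow). These shares count a read once for each window it falls in. The 7 non-overlapping windows alone held between 0.331% and 0.651% of the total over all distinct windows in the inputs. In ChIP they held between 0.00630% and 0.0225%. That total still counts a read once for each window it falls in, so these values are not shares of single reads. The exact (Clopper-Pearson) 95% interval for the lowest of these, wild type 0.1% serum ChIP replicate A with 184 reads, was 0.00542% to 0.00727%. Such intervals and limits treat each count in the total as a separate read. They cover counting error only, since without molecular identifiers several reads may stem from one molecule.

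A mitochondrial window in an input held between 111 and 226 times as many reads as the mean nuclear window (mean 142 ± 36.8, SD, n = 8). In ChIP the same ratio was between 2.21 and 7.70 (mean 4.62 ± 1.92, SD, n = 7). The nuclear mean includes some windows without any reads. As a ratio of the median mitochondrial to the median nuclear window, the values were 120 in input and 5.25 in ChIP. The ChIP libraries thus still held more reads in a mitochondrial window than in an average nuclear one. Of 237237 nuclear windows, 0 had a mean input level above the lowest mitochondrial window, at 424 reads per 1000000 window reads (CPM), and the highest nuclear window reached 77.6 CPM. In ChIP, 151 nuclear windows lay above the mitochondrial median of 18.2 CPM, and 22 lay above the highest mitochondrial window of 31.7 CPM.

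All 37 mitochondrial windows fell in ChIP against input in the fit across all windows (edgeR quasi-likelihood test, Benjamini-Hochberg adjusted p between 5.4e-61 and 1.1e-49). Over all 206148 windows tested, 38.6% were called lower in that comparison. The fitted log2 difference had a median of -4.81 over the mitochondrial windows and ran from -4.96 to -4.11, against a median of -0.03 over all windows. It was called for the 2 rRNA, 22 tRNA, 7 complex I, 1 complex III, 3 complex IV and 2 complex V genes alike, and for 7 of the 7 windows that do not overlap. Among 203481 nuclear windows with at least 100 input reads in all, 258 had a ratio of ChIP to input CPM under the highest mitochondrial ratio of 0.0504, and the nuclear median was 0.904.

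The depletion was seen gene by gene. MT-RNR2 (ENSG00000210082, chrM:671-2671) encodes the large rRNA of the mitochondrial ribosome. Its inputs gave 584 and 469 CPM in wild type and 939 and 558 CPM in ΔLEO1 in 10% serum, and 518 and 534 CPM in wild type and 661 and 507 CPM in ΔLEO1 in 0.1% serum. Its ChIP libraries gave 20.5 and 29.7 CPM in wild type and 38.5 CPM in ΔLEO1 in 10% serum, and 8.90 and 16.0 CPM in wild type and 11.0 and 12.8 CPM in ΔLEO1 in 0.1% serum. Every ChIP value lay far under every input value, and the fitted log2 difference was -4.76 ± 0.22 (SE).

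MT-ND1 (ENSG00000198888, chrM:2307-4307) encodes a membrane subunit of complex I, the NADH dehydrogenase of the respiratory chain. The inputs of its window gave 647 and 520 CPM in wild type and 990 and 616 CPM in ΔLEO1 in 10% serum, and 566 and 591 CPM in wild type and 722 and 552 CPM in ΔLEO1 in 0.1% serum. Its ChIP values were 22.6 and 26.4 CPM in wild type and 37.5 CPM in ΔLEO1 in 10% serum, and 10.3 and 17.3 CPM in wild type and 13.8 and 20.5 CPM in ΔLEO1 in 0.1% serum. The fitted log2 difference between ChIP and input was -4.75 ± 0.23 (SE).

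MT-CYB (ENSG00000198727, chrM:13747-15747) encodes cytochrome b, the mitochondrially encoded subunit of complex III. Its input values were 711 and 581 CPM in wild type and 1133 and 698 CPM in ΔLEO1 in 10% serum, and 631 and 647 CPM in wild type and 794 and 613 CPM in ΔLEO1 in 0.1% serum. In ChIP they were 29.1 and 30.8 CPM in wild type and 29.5 CPM in ΔLEO1 in 10% serum, and 14.4 and 25.3 CPM in wild type and 16.8 and 13.7 CPM in ΔLEO1 in 0.1% serum. The 3 ChIP libraries of 10% serum lay close together here, and the log2 difference from input was -4.82 ± 0.23 (SE).

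MT-CO1 (ENSG00000198804, chrM:4904-6904) encodes the catalytic core of cytochrome c oxidase, complex IV. Its input values were 484 and 388 CPM in wild type and 788 and 460 CPM in ΔLEO1 in 10% serum, and 428 and 445 CPM in wild type and 542 and 424 CPM in ΔLEO1 in 0.1% serum. Its ChIP values were 19.2 and 20.3 CPM in wild type and 28 CPM in ΔLEO1 in 10% serum, and 5.82 and 13.5 CPM in wild type and 11.3 and 10.5 CPM in ΔLEO1 in 0.1% serum. The log2 difference was -4.81 ± 0.22 (SE).

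MT-ATP6 (ENSG00000198899, chrM:7527-9527) encodes a subunit of the proton channel of ATP synthase, complex V. The inputs gave 528 and 426 CPM in wild type and 847 and 510 CPM in ΔLEO1 in 10% serum, and 472 and 481 CPM in wild type and 602 and 458 CPM in ΔLEO1 in 0.1% serum. The ChIP libraries gave 17.5 and 23.9 CPM in wild type and 28.5 CPM in ΔLEO1 in 10% serum, and 5.47 and 14.3 CPM in wild type and 10.4 and 11.4 CPM in ΔLEO1 in 0.1% serum. Its log2 difference of -4.91 ± 0.22 (SE) was near the low end of the 37 windows.

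MT-TF (ENSG00000210049) and MT-TP (ENSG00000210196), which encode the tRNAs for phenylalanine and proline, stand at either end of the map and border the control region. The MT-TF inputs gave 400 and 341 CPM in wild type and 687 and 409 CPM in ΔLEO1 in 10% serum, and 358 and 377 CPM in wild type and 452 and 368 CPM in ΔLEO1 in 0.1% serum. Its ChIP values were 21.4 and 24.2 CPM in wild type and 33.2 CPM in ΔLEO1 in 10% serum, and 7.87 and 15.6 CPM in wild type and 11.6 and 7.74 CPM in ΔLEO1 in 0.1% serum. MT-TF thus behaved like the coding windows in serum, with all 0.1% serum values under all 10% serum values. The MT-TP inputs gave 560 and 457 CPM in wild type and 1003 and 534 CPM in ΔLEO1 in 10% serum, and 494 and 512 CPM in wild type and 632 and 477 CPM in ΔLEO1 in 0.1% serum. Its ChIP values were 29.5 and 28.6 CPM in wild type and 40.1 CPM in ΔLEO1 in 10% serum, and 23.6 and 39.2 CPM in wild type and 20.8 and 24.1 CPM in ΔLEO1 in 0.1% serum. At MT-TP the 2 sera overlapped. The fitted log2 differences between ChIP and input were -4.44 ± 0.20 (SE) at MT-TF and -4.11 ± 0.21 (SE) at MT-TP.

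Position along the map was examined next, on read levels divided by the mean of the 37 windows in the same library, so that differences in total mitochondrial share drop out. The inputs had nearly the same profile. Across the 37 windows, Pearson's r between 2 inputs was between 0.978 and 0.999 over 28 pairs, and no window varied by more than 4.08% (coefficient of variation over 8 inputs, the highest at MT-TP). These correlations are across overlapping windows, which are not independent.

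The input profile was not flat. The 17 windows from MT-TI to MT-CO3, which hold MT-ND2, the 3 complex IV genes and both ATP synthase genes, lay at 0.77 to 0.95 times the mean window. The 12 windows from MT-TG to MT-CYB, which hold most complex I genes, lay at 1.15 to 1.27 times the mean. Per kb of listed window, the mean input level was lowest at MT-TW (225 CPM per kb), the tRNA for tryptophan, and highest at MT-TS2 (370 CPM per kb), a tRNA for serine. MT-TT and MT-TP gave 318 and 292 CPM per kb, but their windows run past the end of the map. Per kb of DNA covered they would lie higher, so the highest window is not settled. MT-TF had the lowest level per window, 424 ± 112 CPM (SD, n = 8), but its window was clipped, and per kb it held 269 CPM. Of the 37 genes, 13 have a nuclear copy by symbol in the table, and these were 1 of 6 genes from MT-TF to MT-ND1, 6 of the 17 and 6 of the 12. Both the lower and the higher stretch held such genes. A gene was counted by the pseudogene symbols that bear its name, so neighbouring genes inside its window did not enter. The copies with the highest input levels, MTATP6P1, MTATP8P1 and MTCO3P12, are named for genes of the lower stretch. The part of nuclear copies in the input profile was not tested.

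The ChIP profiles were noisier, on between 14 and 100 reads a window. Pearson's r across the windows was between 0.535 and 0.907 over 21 pairs of ChIP libraries and between 0.408 and 0.897 over 56 pairs of a ChIP library with an input. The coefficient of variation of a window over the 7 ChIP libraries had a median of 17.0%, against 1.21% over the inputs. The dip from MT-TI to MT-CO3 was present in the ChIP mean as well, at 0.65 to 0.81 times the mean window.

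**Figure D2:**
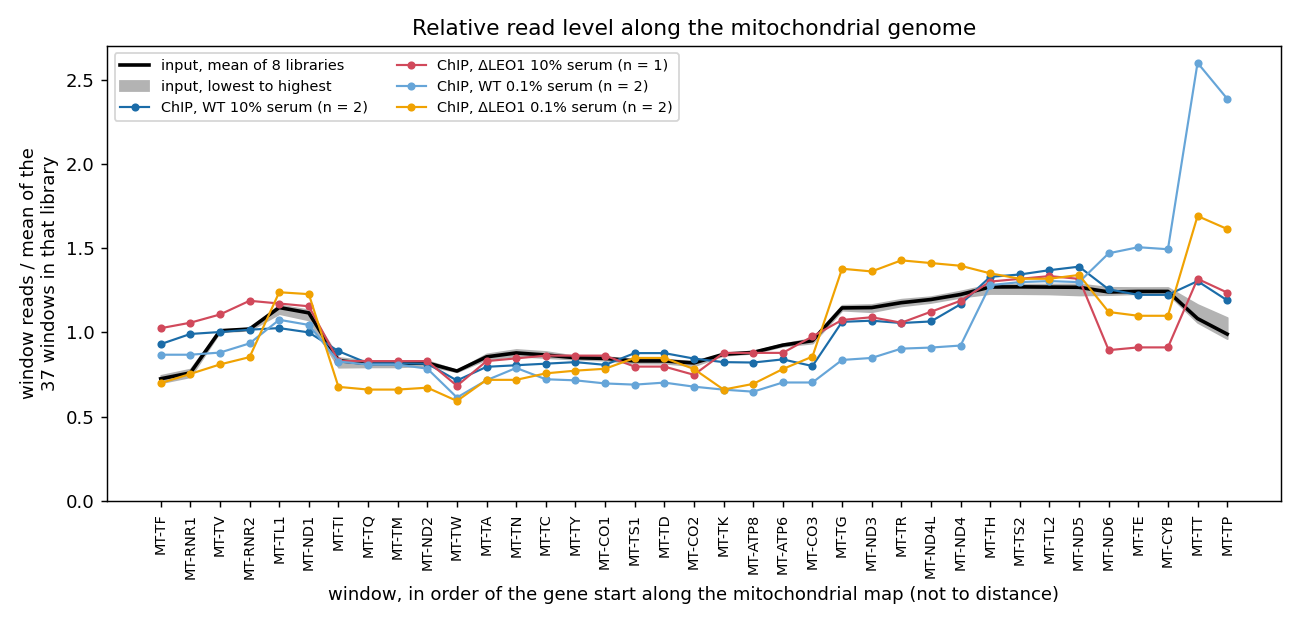
Reads in each of the 37 windows divided by the mean of the 37 in the same library, in map order. The black line and grey band are the mean and range of 8 inputs, and coloured lines are ChIP means of each group (2 libraries, 1 for ΔLEO1 in 10% serum). The ChIP lines follow the inputs loosely and part from them at MT-TT and MT-TP, where wild type in 0.1% serum stands highest.

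MT-TT and MT-TP had the smallest difference between ChIP and input when all libraries were pooled. As a difference of mean log2 CPM, ChIP minus input was -4.30 at MT-TP and -4.33 at MT-TT, the tRNA for threonine. It was -4.76 at MT-TF and -4.77 at MT-RNR1, the small rRNA gene, and between -5.25 (MT-TW) and -4.92 (MT-ND5) at the 33 other windows. Within the groups, on ratios of mean CPM, the order differed. MT-TF and MT-RNR1 had the smallest ratio of input to ChIP in 10% serum (16.3 and 16.0 in wild type, 16.5 and 16.6 in ΔLEO1), with MT-TP at 17.5 and 19.2. In 0.1% serum MT-TP had the smallest (16.0 in wild type and 24.7 in ΔLEO1), while MT-TF and MT-RNR1 were at 31.4 and 32.9 in wild type, close to MT-TE at 31.9, and at 42.3 and 41.3 in ΔLEO1, above MT-TR at 33.8. These windows were singled out after the values were seen, and the order is given without a test. None of the 4 genes that name the windows reaching into the control region has a nuclear copy by symbol. The windows of MT-TT and MT-TP also overlap that of MT-CYB, so this does not cover all DNA in them.

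At MT-TT (ENSG00000210195) the relative ChIP level was 1.36 and 1.25 times the mean window in wild type and 1.32 in ΔLEO1 in 10% serum. In 0.1% serum it was 2.80 and 2.40 in wild type and 1.62 and 1.76 in ΔLEO1, against 1.08 as the mean of the inputs. All 7 ChIP libraries therefore stood above the input mean at this window, and both wild-type 0.1% serum libraries stood highest. In CPM the sera overlapped at MT-TT. Its ChIP values were 31.2 and 32.6 CPM in wild type and 42.7 CPM in ΔLEO1 in 10% serum, and 26.0 and 42.1 CPM in wild type and 22 and 25.1 CPM in ΔLEO1 in 0.1% serum.

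Serum was compared in the ChIP libraries first as a share. The 4 libraries of 0.1% serum lay between 0.0344% and 0.0648%, and the 3 of 10% serum between 0.0851% and 0.120%, without overlap. The mean was 0.0506% ± 0.0125 (SD, n = 4) against 0.100% ± 0.0178 (SD, n = 3), a log2 difference of -1.01, or 2.02-fold lower in 0.1% serum. The exact permutation test, two-sided, gave p = 0.0571, the smallest that 35 arrangements allow, so this design cannot reach 0.05. With the sera kept apart by genotype, both wild-type libraries and both ΔLEO1 libraries of 0.1% serum lay under the 10% serum libraries of their own genotype. Totals of the ChIP libraries overlapped between sera (1895572 to 2763576 reads in 10% and 2195072 to 3266061 in 0.1% serum).

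Some other measures moved with serum in the same libraries. Reads over peak regions for each 100 reads over distinct windows were 14.2 and 13.2 in wild type and 11.9 in ΔLEO1 in 10% serum. In 0.1% serum they were 12.5 and 12.3 in wild type and 10.3 and 9.91 in ΔLEO1. The sera overlapped over all libraries, but within each genotype the 0.1% serum libraries were lower. The share of window reads on 418 windows of nuclear copies of mitochondrial DNA was 0.292% to 0.318% in 0.1% serum and 0.324% to 0.355% in 10% serum. The part of these measures in the mitochondrial difference was not tested.

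Window by window, 35 of the 37 had all 4 libraries of 0.1% serum under all 3 of 10% serum in CPM, and the exceptions were MT-TT and MT-TP. Of 108916 windows with at least 70 ChIP reads in all, 5.19% were ordered that way. In wild type alone, 33 of 37 windows fell in 0.1% serum (edgeR quasi-likelihood test, Benjamini-Hochberg adjusted p under 0.05), against 0.197% of the 140885 windows tested that were called lower. The median log2 fold change was -1.06 over the mitochondrial windows and -0.01 over all windows. The called genes were 2 of 2 rRNA, 19 of 22 tRNA, 7 of 7 complex I, 0 of 1 complex III, 3 of 3 complex IV and 2 of 2 complex V genes, and 7 of the 7 windows that do not overlap.

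The largest fall was that of MT-ND4, which encodes a proton-pumping subunit of complex I. Its ChIP values were 25.2 and 32.2 CPM in 10% serum and 8.21 and 16.9 CPM in 0.1% serum in wild type, with -1.25 ± 0.20 (SE) as fitted log2 fold change (edgeR, adjusted p = 2.7e-05). MT-RNR2 fell by 1.07 ± 0.21, MT-CO1 by 1.07 ± 0.23, MT-ATP6 by 1.13 ± 0.23, MT-TF by 1.01 ± 0.22 and MT-ND1 by 0.88 ± 0.20 on the log2 scale, with adjusted p-values between 0.00117 and 0.0118 (edgeR). The 4 windows that were not called stand together at the end of the map. MT-CYB gave -0.66 ± 0.18 (SE, edgeR adjusted p = 0.0697) and overlaps almost wholly with MT-TE, while MT-TT and MT-TP gave 0.02 ± 0.15 and 0.04 ± 0.16.

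These calls rested on single libraries. Without wild type 0.1% serum replicate A, the library with the lowest share, 0 of 37 windows were called and the median was -0.56, and without wild type 10% serum replicate B or A the count was 7 or 18. DESeq2 called 0 of 37 (29 at an unadjusted p under 0.05), and it called 0 windows in the whole table. With the 50-read library kept in, as 8 ChIP libraries, edgeR called 0 of 37.

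In ΔLEO1, 26 of 37 windows fell in 0.1% serum (edgeR, adjusted p under 0.05), against 0.0525% of all windows tested that were called lower. The 10% serum side was 1 library, whose spread was taken from the other groups. The median log2 fold change was -1.22 and all 37 were negative, from -1.70 at MT-RNR2 to -0.83. By role, the median log2 fold change was -1.67 for rRNA, -1.29 for tRNA, -1.02 for complex I, -1.33 for complex IV and -1.46 for complex V genes. MT-TT, a tRNA gene, gave -0.90 ± 0.20 (SE). MT-CYB gave -0.94 ± 0.25 (SE, edgeR adjusted p = 0.108) and MT-TP -0.88 ± 0.21 (adjusted p = 0.0516). Without ΔLEO1 0.1% serum replicate A the count was 8, and with DESeq2 it was 0 (31 at an unadjusted p under 0.05). With the replicate block it was 14, and with 8 ChIP libraries it was 0. The difference between the serum effects of the genotypes was not tested in ChIP.

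**Figure D3:**
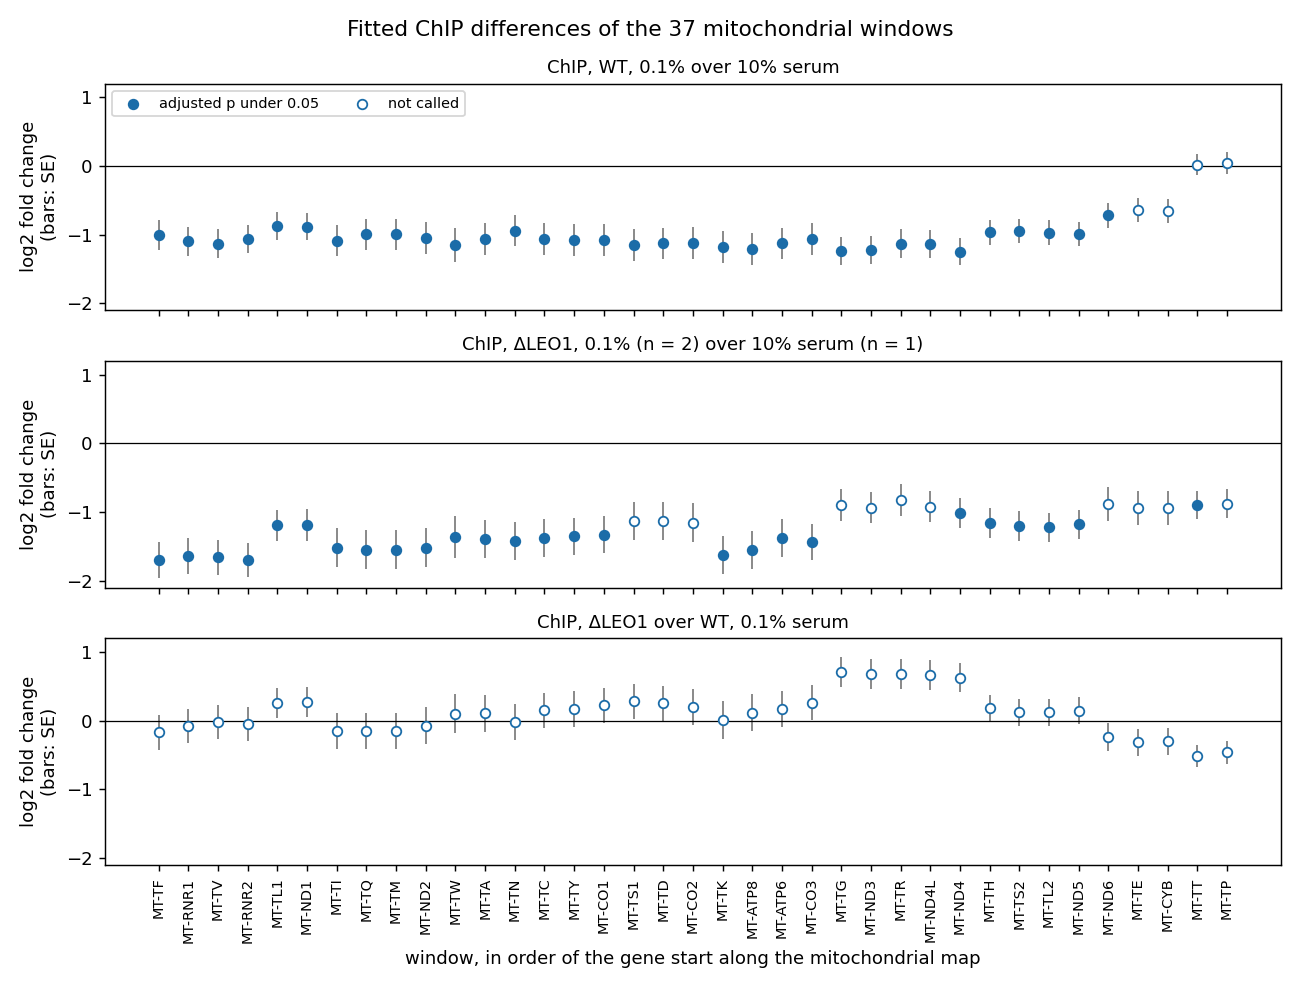
Log2 fold changes with SE of the 37 windows in 3 ChIP comparisons, in map order, from the edgeR fit. Filled points passed an adjusted p under 0.05. In wild type 33 windows were called lower in 0.1% serum and MT-TT and MT-TP sat near 0, in ΔLEO1 26 were called lower, and between genotypes none of the 37 was called.

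In the inputs the sera overlapped. The share was 2.01% ± 0.255 in 0.1% and 2.32% ± 0.750 in 10% serum (SD, n = 4 each), a log2 difference of -0.16 (exact permutation test, two-sided, p = 0.629). Without ΔLEO1 10% serum input replicate A the difference was 0.04, and the median over the windows went from -0.20 to 0.02. With all 8 inputs, the 37 windows had log2 fold changes from -0.26 at MT-TP to -0.18 at MT-ND5, and 0 were called by edgeR or DESeq2, with 0 at an unadjusted p under 0.05 in either. Of all 206484 windows tested, 0% were called. Set against input in one fit, the serum difference of ChIP in wild type had a median of -1.02, and 0 of 37 windows were called (edgeR, 22 at an unadjusted p under 0.05, DESeq2 0 called and 24 under 0.05), against 0.000485% of all windows. The test of the difference from input thus did not pass its threshold, with a median SE of 0.50 a window.

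Genotype was compared in quiescent cells, where the study centred its question on LEO1. The ChIP shares in 0.1% serum were 0.0344% and 0.0648% in wild type and 0.0505% and 0.0525% in ΔLEO1, so both ΔLEO1 libraries lay between the 2 wild-type libraries. Over all 7 ChIP libraries the share was 0.0743% ± 0.0395 in ΔLEO1 (SD, n = 3) and 0.0701% ± 0.0271 in wild type (SD, n = 4), a log2 difference of 0.06 (exact permutation test, two-sided, p = 0.914). When 1 library was left out this difference was between -0.34 (without ΔLEO1 10% serum replicate B) and 0.28, so its direction turned. Of the 37 windows, 0 were called in 0.1% serum by edgeR (7 at an unadjusted p under 0.05) and 0 by DESeq2 (0 under 0.05), against 0.353% of all windows called in either direction. Of all windows tested, 10.8% had an unadjusted p under 0.05 there (edgeR). The median log2 fold change was 0.12.

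The 7 windows with an unadjusted p under 0.05 lay in 2 places. MT-TG, MT-ND3, MT-TR, MT-ND4L and MT-ND4 overlap one another and had log2 fold changes between 0.63 and 0.71, all higher in ΔLEO1. MT-TG, the tRNA for glycine, gave 17.5 and 21.0 CPM in ΔLEO1 and 6.84 and 16.4 CPM in wild type (log2 0.71 ± 0.22, SE, edgeR adjusted p = 0.115). MT-TT and MT-TP gave -0.51 ± 0.16 and -0.46 ± 0.17 (SE, edgeR adjusted p = 0.145 and 0.225). At MT-TT the ΔLEO1 values of 22 and 25.1 CPM lay under both wild-type values of 26.0 and 42.1 CPM. With totals of peak regions as library sizes, 5 of the 37 windows were called higher in ΔLEO1, among them MT-TG (log2 1.00, edgeR adjusted p = 0.00656) and MT-ND4 (log2 0.92, adjusted p = 0.0108). That scaling moved the median of all windows by 0.27 and called 2111 windows higher and 137 lower, against 129 higher and 369 lower with TMM.

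In the inputs, ΔLEO1 libraries had a mean share of 2.42% ± 0.702 and wild-type libraries 1.91% ± 0.166 (SD, n = 4 each). The log2 difference was 0.30 and the groups overlapped (exact permutation test, two-sided, p = 0.2). Without ΔLEO1 10% serum replicate A it was 0.12, and the median over the windows went from 0.34 to 0.11. With all 8 inputs, every mitochondrial window was higher on average in ΔLEO1, by 0.30 (MT-TI) to 0.38 (MT-TP) on the log2 scale, and 0 of 37 were called by edgeR or DESeq2, with 0 at an unadjusted p under 0.05 in either, against 0.0189% of all windows. The interaction of genotype and serum had a median of -0.38 with 0 of 37 windows called and 0 under 0.05 in both tools, where 0% of all windows were called. The interaction median was set by 1 library and was 0.06 without ΔLEO1 10% serum input replicate A. Relative to input, the genotype difference of ChIP in 0.1% serum had a median of -0.07, with 0 of 37 called and 0 under 0.05 in edgeR and DESeq2, against 0.0116% of all windows.

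The input share moved with depth. The 8 inputs spanned 2.79-fold in total reads but 1.53-fold in mitochondrial reads, which were between 97019 and 148861. ΔLEO1 10% serum replicate A had the fewest reads and the highest share, and wild type 10% serum replicate B had the most reads and the lowest share. Pearson's r between the share and the reads over nuclear windows was -0.90 (exact permutation p = 0.00126) and Spearman's rho was -0.93 (exact permutation p = 0.00223) over 8 inputs, the only relation computed of this kind. Without the 2 libraries farthest from the median depth, r was -0.75 (exact permutation p = 0.0861) and rho -0.83 (p = 0.0583, n = 6), so the relation no longer passed 0.05. The share is computed from the depth it was compared with, so the pair is not independent.

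**Figure D4:**
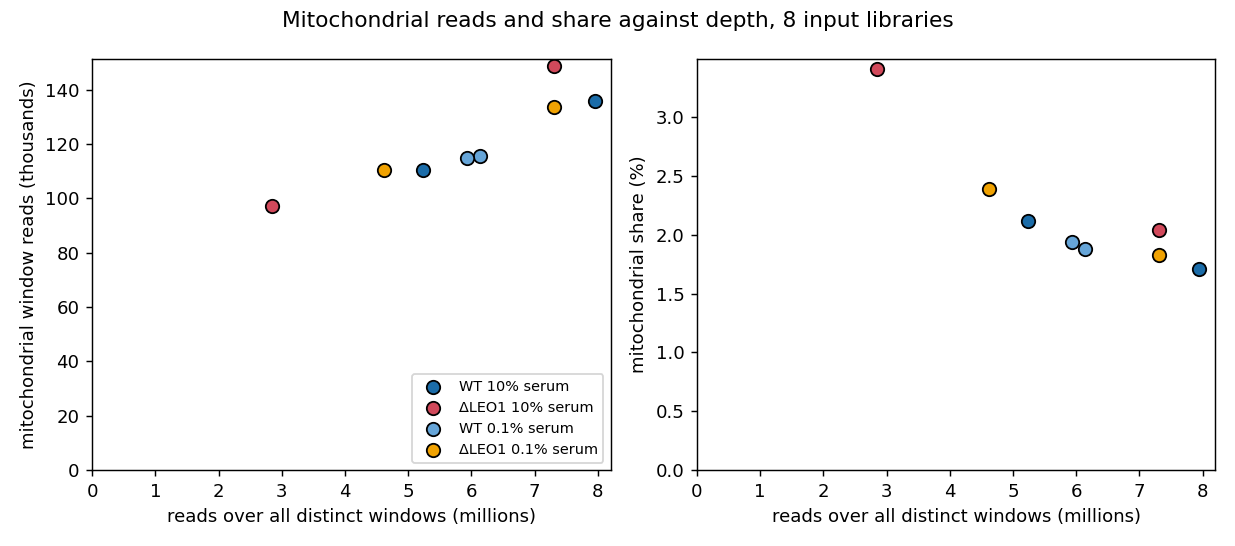
Mitochondrial window reads (left, in units of 1000) and mitochondrial share (right, percent) against reads over all distinct windows (in units of 1000000) in 8 inputs, coloured by group, with axes from 0. Mitochondrial reads rise less steeply than depth, and the share falls from 3.41% in the shallowest to 1.71% in the deepest input.

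On log2 scales, mitochondrial input reads rose by 0.37 for each unit of nuclear reads, with 0.27 to 0.43 over the 37 windows. A slope of 1 would be a constant share. Among nuclear windows with a mean of at least 100 input reads, of which there were 28, the median slope was 0.99 (0.32 to 1.57). Those windows are part of the nuclear reads they were set against, so a median near 1 is partly built in. The inputs compared were of unequal depth, and the part of this dependence in the genotype difference was not tested. Whether duplicate reads were removed is not given in the sources used here.

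The nuclear copies of mitochondrial DNA behaved in another way. These are 418 windows of 402 pseudogenes, named MTND1P23 and the like. Together they took between 0.152% and 0.208% of input reads and between 0.292% and 0.355% of ChIP reads, so their share was higher in every ChIP library than in every input. In the fit of ChIP over input, 361 of 398 tested were called higher and 9 lower (edgeR), against 36.5% and 38.6% of all windows, with a median log2 difference of 1.03. In serum and genotype comparisons 0 of them were called (edgeR). At an unadjusted p under 0.05 there were 50 of 391 for serum in wild-type ChIP, 45 for serum in ΔLEO1 ChIP and 30 for genotype in 0.1% serum, or 12.8%, 11.5% and 7.67%. Of all windows tested 9.61%, 9.23% and 10.8% had such a p in these comparisons.

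Of the 9 copies called lower, 5 lay in a block of 7 at the start of chromosome 1 and 4 lay elsewhere. The 5 had log2 differences from -2.32 to -1.40 and the 4 from -1.43 (MTND4P28) to -0.51 (edgeR). The windows of MTATP6P1 (chr1:632696-634696), MTATP8P1 (chr1:632535-634535) and MTCO3P12 (chr1:633376-635376) had the highest input levels of all copies, at 29.5 ± 5.48, 29.4 ± 5.34 and 29.0 ± 5.92 CPM (SD, n = 8). The other 411 copies outside the block had a median of 4.4 CPM. In ChIP the same 3 windows held 8.59 ± 1.27, 8.03 ± 0.966 and 6.77 ± 2.23 CPM (SD, n = 7), a ratio to input of 0.291, 0.273 and 0.233, against a median ratio of 1.95 for copies outside the block. MTND2P28 and MTND1P23 in the same block had ratios of 0.332 and 0.196, and MTCO1P12 and MTCO2P12 had 2.39 and 1.65. Input reads of MTATP6P1 rose by 0.52 on the log2 scale for each unit of nuclear reads. At 5 of 7 copies in the block, then, the ratio of ChIP to input lay under 1, although far above the 0.0283 to 0.0504 of the mitochondrial windows. Reads of these copies and of the mitochondrial genes they resemble may be split by the counting, so their levels are uncertain.

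The nuclear genes that maintain mitochondrial DNA were counted for the same comparisons. The list held 22 genes, among them TFAM, the packaging protein, POLG, the replicative polymerase, and TWNK, the helicase at the replication fork. For serum and genotype, 0 windows of these genes were called in ChIP (145 windows of 17 genes tested) or in input (225 windows of 21 genes) by edgeR. In ChIP, 8 windows had an unadjusted p under 0.05 for serum in wild type, 3 for serum in ΔLEO1 and 20 for genotype in 0.1% serum, and in input 27 for serum and 8 for genotype. These were 5.52%, 2.07% and 13.8% in ChIP, against 9.61%, 9.23% and 10.8% of all windows tested, and 12% and 3.56% in input, against 7.30% and 5.55%. The lowest p for POLG in the genotype comparison was at a window inside the gene (chr15:89326336-89328336, log2 1.35 ± 0.37, SE, edgeR adjusted p = 0.0562). TWNK gave -1.07 ± 0.42 (chr10:100986367-100988367, edgeR adjusted p = 0.274), and no TFAM window passed the filter on low counts in ChIP.

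In ChIP over input, 20 of the 21 genes tested had a window called lower and 5 had one called higher. Genes with many windows could reach such a call more easily, and the share over all genes was not computed. Of 225 windows, 133 were called lower and 13 higher (59.1% and 5.78%, edgeR), against 38.6% and 36.5% of all windows, with a median of -0.48 against -0.03 for all windows. TFAM (chr10:58384604-58386604) had 5.67 ± 1.23 CPM in input (SD, n = 8) and 1.16 ± 0.581 CPM in ChIP (SD, n = 7), a log2 difference of -1.93 ± 0.25 (SE, edgeR adjusted p = 2.2e-12). POLG and TWNK had -1.27 ± 0.22 and -0.88 ± 0.21 at their windows of lowest p (adjusted p = 4.9e-08 and 8.9e-05, edgeR). These differences lay far from the median of -4.81 over the mitochondrial windows.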

How the data were processed

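ChIP and input DNA of BJ-5ta fibroblasts had been sequenced in 16 libraries, 8 groups of 2. The authors deposited raw read counts, whole numbers without scaling, in 2 tables, over 272902 TSS windows and 16092 peak regions. The submitters' processing notes name bcl2fastq 2.20.0.422, STAR 2.7.10a, HOMER and the builds hg38 and dm6. The study's methods describe csaw counting and scaling to fly chromatin, but 0 fly contigs were found in the tables, so that scaling was not used here. Duplicate handling is not given in the sources used here.

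Of repeated coordinates the first row was kept, which left 237274 windows, and in 2399 of 19216 such sets the repeated rows differed in a count. Shares are chrM reads over all distinct-window reads, and CPM uses the same total. Mean log2 shares were compared by exact permutation over libraries, two-sided. Counts were tested over all windows with edgeR 4.0.16 in R 4.3.3 (quasi-likelihood F-test, filterByExpr with a minimum count of 10, TMM, prior count 2, 1 coefficient per group), with Benjamini-Hochberg adjustment over all windows tested and 0.05 as threshold. The SE of an edgeR value was derived as the absolute log2 fold change divided by the square root of F. The code was tested on simulated data. DESeq2 1.42.0, no filter, other library sizes, all table rows, other sets of chrM windows, only the groups compared, the replicate block and leaving out each library were alternatives.

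Genes named were one of each role, the extremes of input level, of ChIP over input and of 4 comparisons, TFAM, POLG, TWNK and the 3 highest nuclear copies. For nuclear genes with several windows, that of lowest p is given. Members and lists were chosen with earlier results of these data known. TMM sets the middle of the fold changes near 0, so no shift of the mark across all windows can be seen.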

Additional observations from a re-analysis of the deposited data

Results flagged for a closer look

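One library stood apart from its kind. Among the 8 inputs, ΔLEO1 10% serum replicate A had a mitochondrial share of 3.41%, and its gap to the next highest input (2.39%) was 0.602 of the whole range. It was also the shallowest input, with 2844482 reads over distinct windows. Chance alone marks about 1 in 20 such groups, and 8 groups of libraries were examined. No difference between serum or genotype effects passed its test.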

How the results depend on the processing

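Over the alternatives run, the mitochondrial share stayed lower in ChIP than in input, with a log2 difference between -5.13 and -4.83 when 1 library was left out and -6.92 with peak-region totals as denominator, regions that take a larger part of the ChIP reads. All 37 windows stayed called lower in ChIP in every fit run. The ChIP serum difference in wild type was less stable. Of the 37 windows, 33 were called, 23 with peak-region totals as library sizes, 0 with DESeq2 and 0 with 8 ChIP libraries, and between 0 and 33 without 1 library. In ΔLEO1 the count was 26, with 17 under peak-region totals, 14 with the replicate block, 0 with DESeq2, 0 with 8 ChIP libraries, and between 8 and 32 without 1 library. For genotype in 0.1% serum 0 windows were called, 5 under peak-region totals and between 0 and 3 without 1 library (1 lower without wild type 0.1% serum replicate A, 3 higher without B). Where a side was left with 1 library, it was assumed to vary like the other groups. Peak-region totals moved the median of all windows by 0.15 for serum in wild type, 0.24 in ΔLEO1 and -1.83 in ChIP over input. The calls over all windows went from 101 higher and 277 lower to 274 and 109 for serum in wild type, from 20 and 74 to 90 and 23 in ΔLEO1, and from 75219 and 79563 to 16 and 203503 in ChIP over input. Relative to the median of all windows, the mitochondrial median for serum in wild type was -1.05 with TMM and -1.04 with peak-region totals. Other library sizes shift all windows by nearly the same amount, so these values were bound to lie close.

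Deviations of same-lettered libraries had correlations from -0.49 to 0.49 over 21 pairs of groups and 105 windows, 8 of them above 0.1. The letters were not taken as pairs in the main tests. With 2 libraries a group, such correlations cannot show that the letters were unpaired. The mitochondrial share was lower in A than in B in each ChIP group that kept both libraries. In input it was higher in A, except in wild type in 0.1% serum. With the replicate block the wild-type serum count was 33, and no other call than that in ΔLEO1 moved by over 1.5 times. The serum and genotype differences of share in input and the genotype difference in ChIP passed no threshold under any alternative. The log2 difference in ChIP share between sera was between -1.14 and -0.84 without 1 library, and -1.08 without MT-TT and MT-TP, a setting added after the data were seen. The share could not be computed with 8 ChIP libraries, because 0 reads of the 54-read library lay on chrM. With 14 to 100 reads in a mitochondrial window of a ChIP library, depth limits what single windows can show, and 2 libraries a group limit it further. The windows overlap, so their calls are not independent.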
